A study of Mus musculus with 6 samples.

Results

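The nuclear lamina and lobulation genes are 10 genes whose products build the inner nuclear membrane and the lamina beneath it, or tie that membrane to the cytoskeleton: Lmna, Lmnb1, Lmnb2, Lbr, Sun1, Sun2, Syne1, Syne2, Emd and Tmpo. They were taken by symbol from the deposited table of TPM values, which lists 52636 genes, and each of the 10 was found there. TPM is a read share corrected for transcript length and scaled to a fixed total in each library, so levels can be set side by side between genes. Of the 10, 9 reached a mean of 1 TPM over the libraries, the minimum for a test, as did 9775 genes in all. Lmna was below it in every library.

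The libraries hold RNA of primary neutrophils taken from the bone marrow of C57BL/6N mice aged 10 weeks. There are 6 of them, 3 labelled WT and 3 labelled LRP5-null. The LRP5-null mice carried a floxed Lrp5 gene (LRP5f/f) and a Cre recombinase expressed from the Lyz2 locus (Lyz2Cre+), which is active in neutrophils and in other myeloid cells such as monocytes and macrophages. The labels of the control mice give WT and no allele, so whether they carried Cre is not known from them. Nothing in the labels ties a library to 1 animal, and the p-values below therefore measure the spread between these libraries only.

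The nuclear lamina is a meshwork of A-type lamins (from Lmna) and B-type lamins (from Lmnb1 and Lmnb2) that gives the nucleus its stiffness, and neutrophils are known for very little A-type lamin and much lamin B receptor. LBR, an inner membrane protein that binds B-type lamins and heterochromatin, is needed for the segmented nucleus: its loss gives the round or bilobed granulocyte nuclei of Pelger-Huet anomaly in people and of ichthyosis mice. SUN proteins in the inner membrane and nesprins in the outer membrane join across the perinuclear space and couple the lamina to actin, microtubules and their motors.

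Starting points of transcription were compared between the genes as well, since their sequence was used neither to choose the genes nor in the TPM values. RefSeq promoter windows, 250 bases before to 50 bases after a start site, were at hand for 9 of the 10 genes, 15 windows in all, and each matched the NCBIM37 genome at exactly 1 place. The CCAAT box, searched as CCAAT on both strands, was in 7 of the 15 windows. It was present 2 times in 4 of the 15 windows, those of Lbr, Sun1, Sun2 and Tmpo. Of 32841 mouse promoter windows, 37.4% held at least 1 CCAAT and 11.7% held at least 2. The 4 windows with a pair are rich in G and C, and among the 6011 windows with at least 65% of these bases, 28.0% held at least 1 and 9.38% at least 2, against 4 of the 6 windows of these genes that are as rich. The 120 bases just before the start site are shown for the 4 genes with a pair, and for Lmna and Syne1, which have none there, so that the spacing can be seen. Capitals mark the CCAAT box, which on the other strand reads ATTGG, and each run is written 5′ to 3′ along the gene's own strand.

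Lbr, chr1:183772533-183772652, minus strand: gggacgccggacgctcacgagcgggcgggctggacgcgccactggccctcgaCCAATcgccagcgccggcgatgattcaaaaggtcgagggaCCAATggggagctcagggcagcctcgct
Sun2, chr15:79572967-79573086, minus strand: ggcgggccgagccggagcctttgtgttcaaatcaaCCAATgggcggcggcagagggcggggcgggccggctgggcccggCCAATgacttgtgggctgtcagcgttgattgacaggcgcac
Tmpo, chr10:90634365-90634484, minus strand: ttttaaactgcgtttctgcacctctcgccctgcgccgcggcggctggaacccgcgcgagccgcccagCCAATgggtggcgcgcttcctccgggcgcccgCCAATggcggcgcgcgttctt
Sun1, chr5:139676471-139676590, plus strand: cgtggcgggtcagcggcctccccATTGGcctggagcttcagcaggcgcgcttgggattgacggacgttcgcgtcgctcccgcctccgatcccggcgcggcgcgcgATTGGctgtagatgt
Lmna, chr3:88307275-88307394, minus strand: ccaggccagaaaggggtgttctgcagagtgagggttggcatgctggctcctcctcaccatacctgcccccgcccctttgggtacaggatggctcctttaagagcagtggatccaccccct
Syne1, chr10:4795729-4795848, plus strand: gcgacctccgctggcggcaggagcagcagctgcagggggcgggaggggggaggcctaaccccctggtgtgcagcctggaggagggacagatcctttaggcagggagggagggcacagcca

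The boxes of Lbr began 68 and 28 bases before the start site, those of Sun2 85 and 41, those of Tmpo 53 and 21, and those of Sun1 97 and 15. None of these shared a letter with another motif searched. The GC box, GGGCGG on both strands, was in 9 of the 15 windows and in at least 1 window of each of the 9 genes, beside 35.7% of all windows. A C/EBP-type motif, TTGCNNAA, was in 0 of the 15 windows and in 10.8% of all windows. The PU.1-type motif GAGGAAG was in 1 of the 15 and the TATA box TATAAA in 2, with 13.6% of all windows for either. These are counts of letters in short windows and say nothing of whether a factor binds there.

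The libraries were deep, with 249841492 to 340580330 reads in total. Defining neutrophil genes (S100a8, S100a9, Ly6g, Csf3r, Itgam, Cxcr2, Retnlg and Mmp8) all passed the TPM minimum and summed to 332419 to 382468 TPM in WT and 362008 to 385947 TPM in the libraries labelled LRP5-null. S100a8 and S100a9 made up most of these sums. S100a9 was higher without overlap, at 195191 to 204166 TPM in WT and 221870 to 230639 TPM. Mmp8 (3646 to 4124 TPM in WT and 2703 to 3022 TPM) and Cxcr2 (749 to 807 TPM and 669 to 735 TPM) were lower without overlap. The rest overlapped, and 0 of the 8 were called (limma). Lrp5 itself was at 1.12, 1.31 and 1.42 TPM in WT and at 1.68, 1.77 and 2.07 TPM in the libraries labelled LRP5-null, with no overlap and a log2 difference of 0.31 (limma, adjusted p = 0.136). A value for the whole gene does not resolve the floxed part, so it does not check the deletion, and every direction below rests on the labels. Lyz2, where the Cre sits, had a mean of 25963 ± 1039 TPM (SD, n = 3) in WT and 13792 ± 375 TPM in the libraries labelled LRP5-null (limma, log2 difference -0.91, adjusted p = 0.0035, and 0.123 with no filter on low values).

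WT replicates 1 and 2 stood apart from the other 4 libraries. Their ribosomal reads made up 1.20% and 1.30%, while WT replicate 3 had 3.30% and the libraries labelled LRP5-null had 2.69% to 2.98%. A gene's deviation from its mean ran with the GC content of its transcript at a Spearman rho of -0.61 and -0.43 across 8853 genes in those 2 libraries, and at 0.33 to 0.44 in the other 4 (a description across genes, which are not replicates). The intronic share did not overlap between the groups, at 7.78% to 9.0% in WT and, for the libraries labelled LRP5-null, 10.62% to 11.23%. Values without WT replicate 3, and with the trends over GC content and transcript length removed from each library, are therefore given beside the results. In bulk RNA, fewer cells of a type and less RNA per cell cannot be told apart.

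By level, the set spanned from Lbr, with a mean of 420.5 TPM over the 6 libraries, to Lmna, with 0.0974 TPM. Between them came Sun2 (261 TPM), Lmnb1 (242 TPM), Syne1 (85.2 TPM), Emd (52.5 TPM), Tmpo (48.0 TPM), Syne2 (12.4 TPM), Sun1 (8.95 TPM) and Lmnb2 (5.19 TPM). Lbr, Sun2 and Lmnb1 ranked 202, 334 and 366 of the 9775 genes tested. The ranges of neighbours in that order were separate except for 3 pairs. Sun2 was above Lmnb1 in 5 of 6 libraries, Emd above Tmpo in 4 of 6, and Syne2 above Sun1 in 6 of 6 although their ranges over libraries overlapped. Emd and Lmnb1 varied least over the 6 libraries, with a coefficient of variation of 4.21% and 4.66%, and Sun1 varied most among the genes tested, with 23.3%.

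**Figure D1:**
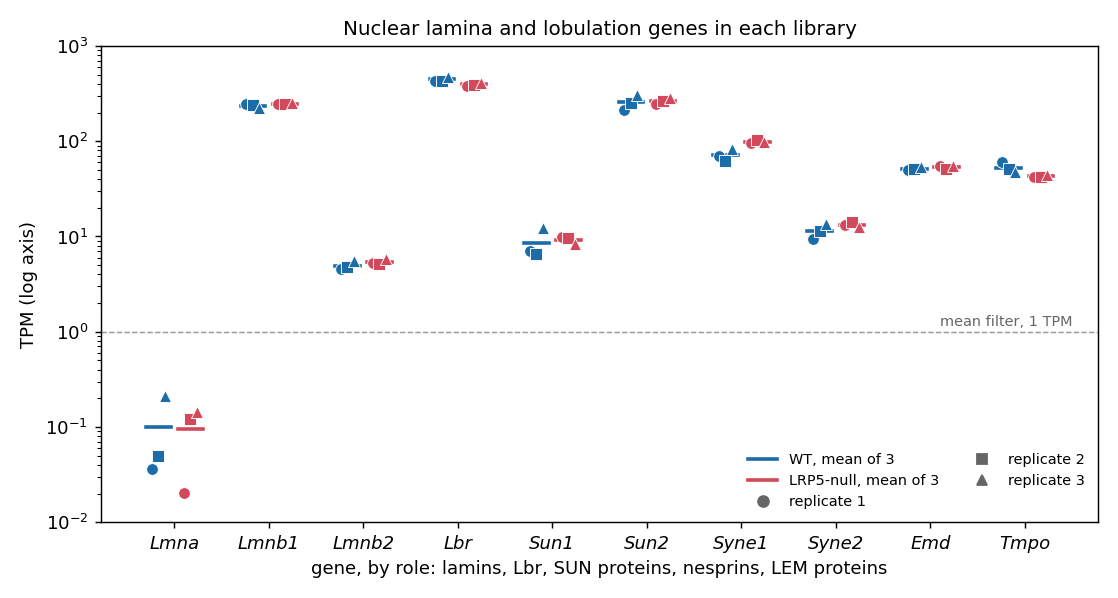
TPM (log axis) of the 10 genes in each library, grouped by role; bars are means of 3 libraries, blue for WT and red for LRP5-null, and symbols mark replicates 1 to 3. Lbr, Sun2 and Lmnb1 lie above 211 TPM in every library and Lmna is at 0.213 TPM or less, while only Lbr, Syne1 and Tmpo separate the 2 groups.

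No gene of the set passed the test between the groups. Of the 9 tested, 0 had an adjusted p under 0.05 (limma on log2(TPM + 1), Benjamini-Hochberg over 9775 genes), where 0.532% of all genes tested did. At an unadjusted p under 0.05 there were 3, Syne1, Lbr and Tmpo, and 23.5% of all genes tested were there too. Those 3 were also the genes whose libraries did not overlap between the groups: 1 was higher in the libraries labelled LRP5-null, as were 17.4% of all genes tested, and 2 were lower, as were 12.3%. The median log2 difference of the 9 was 0.082, beside 0.040 for all genes tested.

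The A-type lamin gene Lmna (ENSMUSG00000028063.15, NCBIM37 chr3:88285070-88313878) was close to absent. It was at 0.0366, 0.0498 and 0.213 TPM in WT replicates 1, 2 and 3 and at 0.0203, 0.122 and 0.143 TPM in the libraries labelled LRP5-null. The groups overlapped, the highest value being that of WT replicate 3 and the lowest that of LRP5-null replicate 1. It made up 0.0080% to 0.093% of the summed TPM of the 3 lamin genes.

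Lmnb1 (ENSMUSG00000024590.8), which encodes lamin B1, supplied nearly all lamin transcripts. Its level was 245, 237 and 222 TPM in WT and 247, 243 and 255 TPM in the libraries labelled LRP5-null, and the groups overlapped. The log2 difference was 0.082 (standard error 0.065, limma, adjusted p = 0.469), with a 95% interval from -0.069 to 0.23, and it was 0.041 without WT replicate 3. Its share of the 3 lamin genes was 97.9% ± 0.36 (SD, n = 3) in WT and 97.8% ± 0.11 in the libraries labelled LRP5-null (exact permutation test, two-sided, p = 0.8, where 3 libraries against 3 can give no p below 0.1).

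Lmnb2 (ENSMUSG00000062075.13, chr10:80363948-80380990), the gene of lamin B2, was between 40.3 and 54.4 times lower than Lmnb1 in each library. It was at 4.51, 4.83 and 5.50 TPM in WT and at 5.32, 5.10 and 5.86 TPM in the libraries labelled LRP5-null. WT replicate 3 lay among the LRP5-null values, so the groups overlapped. The log2 difference was 0.11 (limma, adjusted p = 0.489, 95% interval -0.10 to 0.33), 0.18 without WT replicate 3, and 0.060 and 0.065 without WT replicate 1 or LRP5-null replicate 3.

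Lbr (ENSMUSG00000004880.11, chr1:183745447-183772532) encodes the lamin B receptor, which also has sterol reductase activity. It was at 431, 430.5 and 476 TPM in WT and at 381, 392 and 413 TPM in the libraries labelled LRP5-null. Every LRP5-null value lay below every WT value, the nearest being LRP5-null replicate 3 and WT replicate 2. The means were 446 ± 25.8 TPM and 395 ± 16.1 TPM (SD, n = 3 each), a ratio of 0.886. The log2 difference was -0.17 with a standard error of 0.068 (limma, adjusted p = 0.190). It was below 0 under each of 18 alternative ways of processing, from -0.27 to -0.099, and its adjusted p ranged from 0.0936 to 0.422 over them. As the groups did not overlap, no choice of libraries could turn its direction. The value nearest to 0, -0.099 (adjusted p = 0.360), was that with GC and length trends removed.

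The balance of Lbr with the lamins was read within libraries. The ratio of Lbr to Lmnb1, a pair chosen after its values were seen, was 1.76, 1.81 and 2.15 in WT and 1.54, 1.61 and 1.62 in the libraries labelled LRP5-null, without overlap. The log2 ratio of Lbr to Lmna was 12.6 ± 1.27 and 12.4 ± 1.52 (SD, n = 3 each, exact permutation test, two-sided, p = 1). That of Lmna to Lmnb1 was -11.7 ± 1.43 and -11.8 ± 1.56 (exact permutation test, two-sided, p = 1). Both rest on the very low Lmna values. Leaving out 1 library moved the difference of LRP5-null minus WT between -1.0 and 0.35 for the first. For the other it moved between -0.65 and 0.77.

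Of the SUN proteins, Sun2 (ENSMUSG00000042524.13, chr15:79554500-79572966) was the prevalent transcript, 25.1 to 37.7 times the level of Sun1. Sun2 was at 211, 249 and 307 TPM in WT and at 249, 265 and 284 TPM in the libraries labelled LRP5-null. WT held both the lowest and the highest value, and the log2 difference was 0.071 (limma, adjusted p = 0.774, 95% interval -0.24 to 0.38). It was 0.21 without WT replicate 3 and -0.058 without WT replicate 1.

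Sun1 (ENSMUSG00000036817.14, chr5:139676591-139725794) was at 7.02, 6.61 and 12.2 TPM in WT and at 9.85, 9.61 and 8.34 TPM in the libraries labelled LRP5-null. WT replicate 3 was the highest library of all, and WT replicates 1 and 2 were the lowest. With all libraries the log2 difference was 0.14 (standard error 0.20, limma, adjusted p = 0.711). Without WT replicate 3 it was 0.39 (limma, adjusted p = 0.0331), without WT replicate 2 it was -0.0082, and with the ribosomal share as a covariate it was -0.19. With WT replicate 3 as the only WT library it was -0.37 (limma, adjusted p = 0.249), a comparison in which the lone library is assumed to vary like the libraries labelled LRP5-null. The log2 ratio of Sun1 to Sun2 was -4.93 ± 0.29 in WT and -4.84 ± 0.22 in the libraries labelled LRP5-null (SD, n = 3 each, exact permutation test, two-sided, p = 0.7).

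The nesprin genes Syne1 and Syne2 encode giant outer membrane proteins that bind SUN proteins through a KASH domain, and their longest forms reach actin. Syne1 (ENSMUSG00000096054.3, matched by symbol to chr10:4795849-5326338) had the largest difference of the set. It was at 70.8, 62.0 and 82.2 TPM in WT and at 95.8, 102 and 98.4 TPM in the libraries labelled LRP5-null. All 3 LRP5-null values lay above all 3 WT values, with WT replicate 3 the nearest. The means were 71.6 ± 10.1 TPM and 98.8 ± 3.23 TPM (SD, n = 3 each), a ratio of 1.38, and the log2 difference was 0.47 (standard error 0.10, 95% interval 0.22 to 0.71). It missed the threshold, with an adjusted p of 0.0896 (limma).

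Syne2 (ENSMUSG00000063450.14, chr12:76919121-77211913) was at 9.46, 11.5 and 13.4 TPM in WT and at 13.2, 14.1 and 12.7 TPM in the libraries labelled LRP5-null. WT replicate 3 lay within the LRP5-null range. The log2 difference was 0.22 (limma, adjusted p = 0.320, 95% interval -0.068 to 0.50), 0.33 without WT replicate 3 (adjusted p = 0.0601) and 0.097 without WT replicate 1. The log2 ratio of Syne1 to Syne2 was 2.65 ± 0.24 in WT and 2.89 ± 0.057 in the libraries labelled LRP5-null (SD, n = 3 each, exact permutation test, two-sided, p = 0.3).

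The nesprins also stand out by length. With 28204 bases, Syne1 has the longest coding transcript of the 8853 genes tested that have a length in the annotation, and Syne2 ranks 4 with 21704 bases, where the median gene has 2914. Genes with transcripts of at least 15000 bases, a limit chosen after the values were seen, numbered 26, both nesprins included. Of these, 22 had a log2 difference above 0, as did 58.8% of all genes tested, and the median was 0.21. No overlap, with higher values in the libraries labelled LRP5-null, was seen for 13 of them (17.4% of all genes tested), and with lower values for 0 (12.3%). None was called at an adjusted p under 0.05 by limma, and 12 had an unadjusted p under 0.05 (23.5% of all genes tested). As a group picked after its values were seen, they are given as a description only.

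With the trend over length alone removed from each library, Syne1 differed by 0.16 on the log2 scale (limma, adjusted p = 0.211) and Syne2 by -0.036. With the trend over GC content alone removed, Syne1 differed by 0.41 and passed the threshold (limma, adjusted p = 0.0431), where 4.42% of the 8853 genes did, and no other gene of the set was called. With both trends removed, Syne1 differed by 0.069 (adjusted p = 0.461) and Syne2 by -0.11, and 0 of the 9 genes were called by limma while 5.08% of the 8853 genes were; 1 of the 9 had an unadjusted p under 0.05. The 3′ coverage bias was 0.194, 0.231 and 0.253 in WT and 0.257, 0.245 and 0.242 in the libraries labelled LRP5-null. The part that coverage, introns or length play in the nesprin values was not tested.

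The LEM-domain genes Emd and Tmpo encode proteins that hold the chromatin protein BAF: emerin of the inner membrane, and the LAP2 isoforms, which the values here do not tell apart. Emd (ENSMUSG00000001964.14, chrX:71500026-71506887) was at 49.96, 50.7 and 53.6 TPM in WT and at 54.8, 51.0 and 55.0 TPM in the libraries labelled LRP5-null. The groups overlapped, and the log2 difference was 0.058 (limma, adjusted p = 0.628, 95% interval -0.10 to 0.22).

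Tmpo (ENSMUSG00000019961.17, chr10:90610316-90634759) was at 60.6, 51.1 and 47.0 TPM in WT and at 42.5, 42.4 and 44.7 TPM in the libraries labelled LRP5-null. Every LRP5-null value lay below every WT value, WT replicate 3 again being the nearest. The means were 52.9 ± 7.02 TPM and 43.2 ± 1.30 TPM (SD, n = 3 each), a ratio of 0.817, and the log2 difference was -0.28 (standard error 0.10, limma, adjusted p = 0.165). Over the 18 alternatives it ran from -0.36 without WT replicate 3 to -0.12 with WT replicate 3 as the only WT library. With GC and length trends removed it was -0.27 (limma, adjusted p = 0.142). As the groups did not overlap, no choice of libraries could turn its direction.

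**Figure D2:**
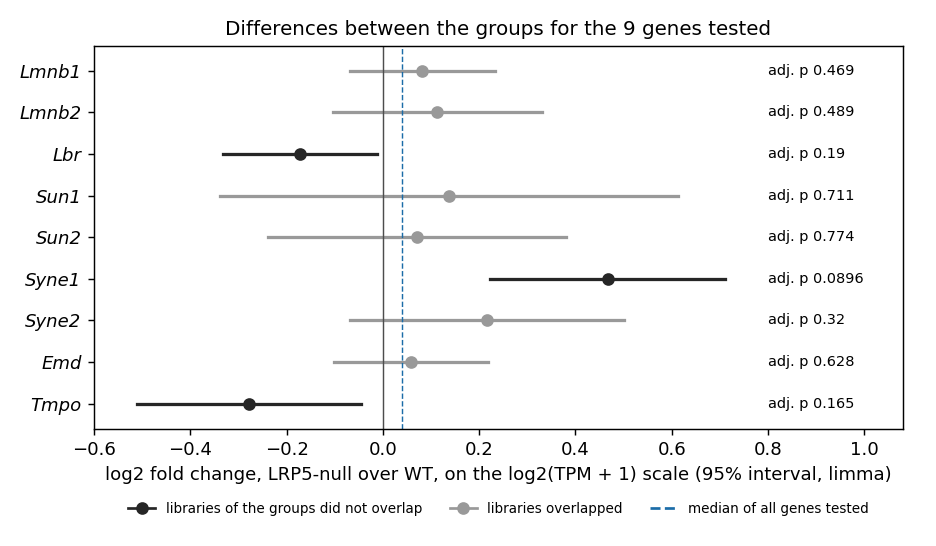
Points are log2 fold changes of the libraries labelled LRP5-null over WT on the log2(TPM + 1) scale for the 9 genes tested, and lines are 95% intervals from limma. Syne1 (0.47), Lbr (-0.17) and Tmpo (-0.28) have intervals that leave out 0, and the smallest adjusted p, that of Syne1, is 0.0896.

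Calls in the set appeared once WT replicate 3 was left out. Without it, 3 of the 9 genes passed the threshold in limma, Syne1 (log2 difference 0.57, adjusted p = 0.0117), Sun1 (0.39) and Tmpo (-0.36, adjusted p = 0.0364). In that comparison 19.6% of all genes tested were called. Lbr was not among them, at -0.13 (limma, adjusted p = 0.153). The WT libraries left there, replicates 1 and 2, are those that stood apart in ribosomal share and GC trend. Group and that split cannot be told apart without WT replicate 3. With WT replicate 3 as the only WT library, the spread comes from the 3 libraries labelled LRP5-null alone. Lbr then differed by -0.27, Syne1 by 0.26 and Tmpo by -0.12. In that comparison 0 of the 9 were called, beside 0.0614% of all genes tested, and 4 had an unadjusted p under 0.05, beside 15.9% (limma).

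**Figure D3:**
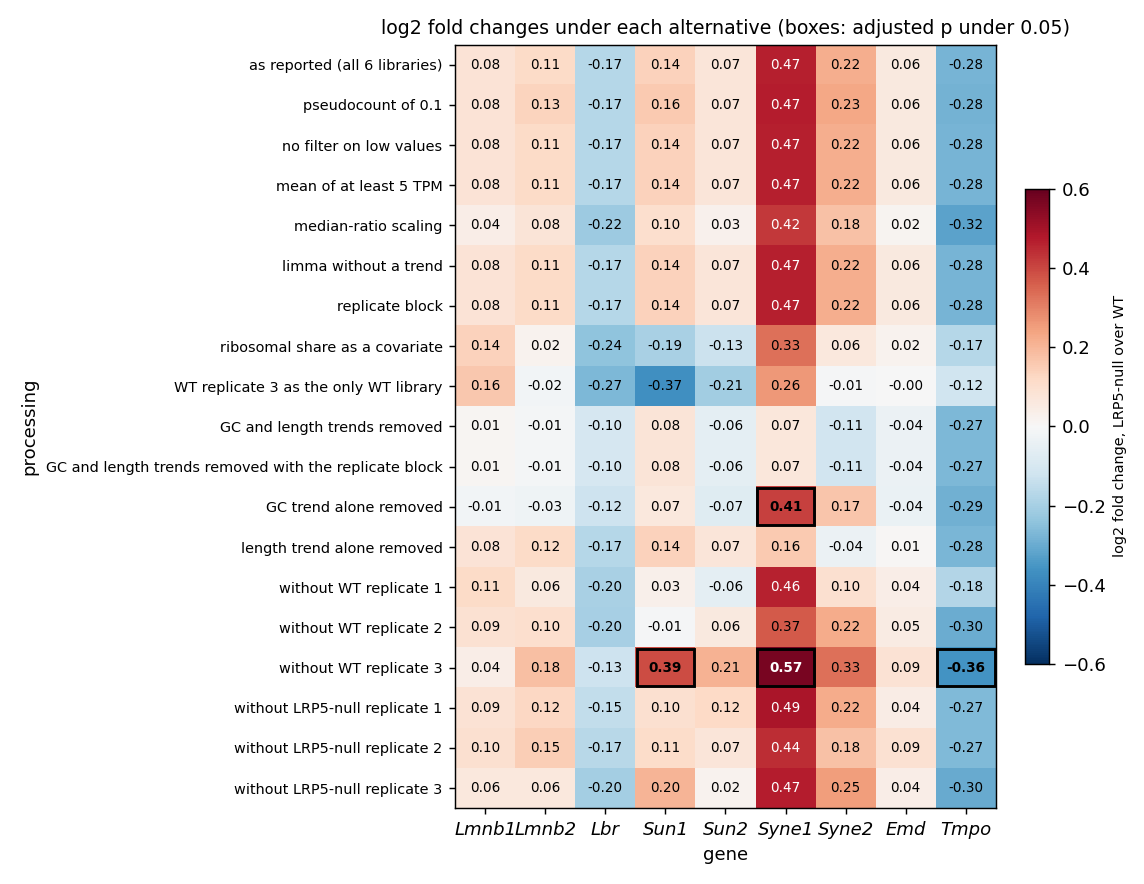
Each cell gives the log2 fold change of a gene (columns) under a way of processing or a choice of libraries (lines), red above 0 and blue below; boxes mark an adjusted p under 0.05. Lbr and Tmpo are below 0 and Syne1 above 0 throughout, which no choice of libraries could change, as their groups did not overlap. Boxes appear without WT replicate 3 (Sun1, Syne1 and Tmpo) and with the GC trend alone removed (Syne1, 0.41).

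**Figure D4:**
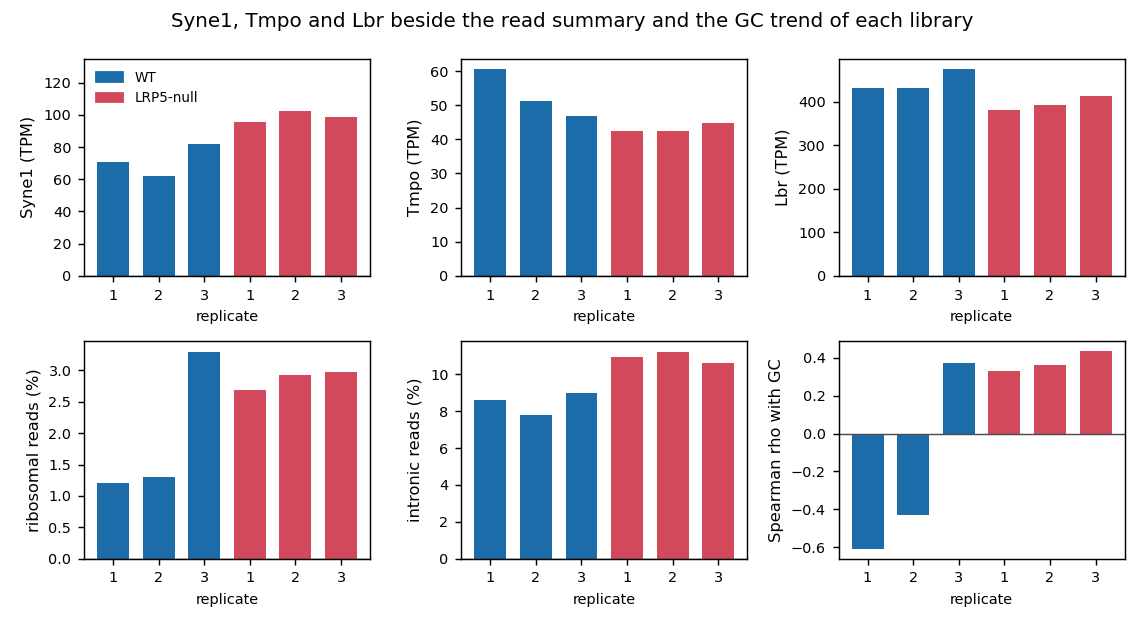
Bars give Syne1, Tmpo and Lbr in TPM (upper panels) and the ribosomal share, the intronic share and the Spearman rho with GC content (lower panels) for each library, blue for WT and red for LRP5-null. WT replicate 3 is with the libraries labelled LRP5-null in ribosomal share (3.30%) and GC trend (0.37) and with WT in intronic share (9.0%).

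Markers of other cells and stages were read beside these values. The 5 early granule genes of immature neutrophils, all above the minimum, summed to 29.0 to 30.1 TPM in WT and 37.0 to 38.0 TPM in the libraries labelled LRP5-null. Ms4a3 made up most of these sums. Elane, Ctsg and Ms4a3, 3 of the 5, were higher without overlap, beside 17.4% of all genes tested. Mpo and Prtn3 overlapped, and 0 of the 5 were called (limma). The 6 genes of cycling cells, all above the minimum too, summed to 139 to 144 TPM and 155 to 163 TPM. Mki67, Birc5 and Rrm2, 3 of the 6, were higher without overlap. Top2a, Ccnb1 and Cdk1 overlapped, and 0 of the 6 were called (limma). The T and NK cell list summed to 11.5 to 13.5 TPM and 15.5 to 17.0 TPM, but only 2 of its 6 genes passed the minimum, and Cd3e, Cd3g, Trbc2 and Klrb1c were below 1 TPM in every library. Of those above the minimum, Nkg7 overlapped, and Cd3d did not, at 9.33 to 10.6 TPM and 13.4 to 14.5 TPM.

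Eosinophil genes (2 of 4 above the minimum, with Epx and Il5ra below 1 TPM in every library) summed to 8.31 to 10.1 TPM and 11.3 to 12.1 TPM. Of the 2, Siglecf overlapped, at 7.31 to 8.77 TPM and 8.04 to 8.69 TPM. Prg2, an eosinophil granule protein gene named here after its values were seen, rose from 0.85, 1.16 and 1.05 TPM in WT to 2.91, 2.33 and 3.13 TPM (limma, log2 difference 0.91, adjusted p = 0.0341). Megakaryocyte genes (2 of 4) summed to 2.998 to 4.36 TPM and 4.74 to 5.58 TPM, and progenitor genes (1 of 3) to 6.33 to 7.57 TPM and 7.70 to 8.66 TPM. The megakaryocyte genes above the minimum, Pf4 and Gp9, each overlapped between the groups. Sums of monocyte and macrophage genes (5 of 6) overlapped, at 562 to 722 TPM and 632 to 685 TPM, as did those of the B cell, basophil, erythroid and stromal lists. Ly6c2 made up most of the monocyte sums, at 513 to 664 TPM and 578 to 628 TPM. Among the genes tested in these lists, Adgre1 was higher without overlap, at 10.3 to 12.6 TPM and 14.4 to 15.6 TPM. Hba-a1 was lower without overlap, at 8.50 to 10.3 TPM and 6.55 to 8.10 TPM. Both are named after their values were seen. The sums of these marker lists are small beside those of the neutrophil genes, which S100a8 and S100a9 dominate, so this gives no share of cells. The monocyte sums lay near the level of a single neutrophil gene, Cxcr2, at 669 to 807 TPM over the libraries. No list was at 0 throughout, and the part of these lists in the lamina values was not tested.

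Other genes of the nuclear envelope were taken from 8 lists by function, 112 genes in all, of which 100 were tested. None was called (limma), and 21 had an unadjusted p under 0.05, beside 23.5% of all genes tested. There was no overlap, with higher values in the libraries labelled LRP5-null, for 20 (beside 17.4%) and with lower values for 12 (beside 12.3%), so these counts were near those over all genes. Their median log2 difference was 0.026. The lists below are small, and their counts are read against the same 23.5%. Of the 14 tested SUN, KASH, LEM and other inner membrane genes, 6 were at an unadjusted p under 0.05, 5 above 0 and 1 below. The KASH genes Syne3, which encodes the nesprin that reaches plectin, and Lrmp, which encodes a KASH protein of lymphoid and myeloid cells, had the smallest p-values among them. Syne3 was at 2.84, 3.12 and 3.62 TPM in WT and at 4.26, 4.66 and 4.67 TPM in the libraries labelled LRP5-null (limma, log2 difference 0.40, adjusted p = 0.0973). Lrmp was at 78.8, 90.6 and 91.1 TPM and at 96.6, 101 and 106 TPM (limma, log2 difference 0.22, adjusted p = 0.175). Neither gene's groups overlapped. With GC and length trends removed, Syne3 differed by 0.26 and passed the threshold (limma, adjusted p = 0.0455), and Lrmp differed by 0.15 (adjusted p = 0.144). With the GC trend alone removed, Syne3 passed it too (0.29, limma, adjusted p = 0.0431). Calls went both ways among the 99 other nuclear envelope genes in these fits. With both trends removed 7 were called, 2 above 0 and 5 below, beside 5.08% of all genes. With the GC trend alone removed 6 were, 3 above 0 and 3 below, beside 4.42%.

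Among the 10 cytoskeletal partners tested, 3 were at an unadjusted p under 0.05, each above 0. Plec, the gene of plectin, differed by 0.39 (limma, adjusted p = 0.112) and Dync1h1, the heavy chain of the motor dynein, by 0.34 (adjusted p = 0.133), and both have long transcripts, of 15455 and 14342 bases. With GC and length trends removed, Plec differed by 0.016 (adjusted p = 0.934) and Dync1h1 by 0.049 (adjusted p = 0.504). Of 30 nuclear pore genes, 3 were at an unadjusted p under 0.05, fewer in share than the 23.5% of all genes tested. Nup210, a pore membrane glycoprotein, had 4.12 ± 0.76 TPM in WT and 6.17 ± 0.17 TPM in the libraries labelled LRP5-null (limma, log2 difference 0.50, adjusted p = 0.0952), and Nup35 differed by 0.47 (adjusted p = 0.0992). With the GC trend alone removed both passed the threshold in limma, Nup210 at 0.38 (adjusted p = 0.0431) and Nup35 at 0.51 (adjusted p = 0.0482). With length removed as well, Nup210 was at 0.32 (adjusted p = 0.0542) and Nup35 at 0.52 (adjusted p = 0.0465).

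In the list of lamin maturation and sterol reductases, 4 of 8 genes tested were below 0. In that of lamin kinases and chromatin decondensation, 5 of 12 were, beside 41.2% of all genes tested. Zmpste24, the protease that matures prelamin A, differed by -0.20 (limma, adjusted p = 0.17) and was the 1 gene of 8 tested in its list at an unadjusted p under 0.05, while Dhcr7, a sterol reductase, differed by 0.23 (adjusted p = 0.260). Cdk6, a cell cycle kinase of the list of lamin kinases and chromatin decondensation, differed by 0.22 (adjusted p = 0.169). Of 10 genes of the ESCRT-III machinery, which reseals the nuclear membrane, 8 were below 0, beside 41.2% of all genes tested, and 2 were at an unadjusted p under 0.05: Chmp2b at -0.30 (adjusted p = 0.152) and Vps4b at -0.22 (adjusted p = 0.181). With GC and length trends removed, Zmpste24 differed by -0.051 (limma, adjusted p = 0.402), Vps4b by -0.093 (adjusted p = 0.215) and Chmp2b by -0.20 (adjusted p = 0.0740).

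Ordered by p, the heterochromatin list was led by the methyltransferases Ehmt2, at 0.40 (limma, adjusted p = 0.173), and Ehmt1, at 0.17 (adjusted p = 0.250). With GC and length trends removed they were at 0.25 and 0.087. Of 5 transcription factors of granulocyte maturation, 3 were at an unadjusted p under 0.05, each above 0. Cebpe, needed for late granulocyte maturation and nuclear segmentation, was at 268, 317 and 305 TPM in WT and at 357, 344 and 337 TPM in the libraries labelled LRP5-null, without overlap (limma, log2 difference 0.23, adjusted p = 0.159). With GC and length trends removed, Cebpe differed by 0.055 (limma, adjusted p = 0.616). Gfi1, a repressor required for neutrophil development, was at 5.95, 6.92 and 6.12 TPM and at 8.40, 8.39 and 8.41 TPM (limma, log2 difference 0.36, adjusted p = 0.0892), and had no GC content or length in the annotation.

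Without WT replicate 3, 18 of the 100 other nuclear envelope genes were called, 13 above 0 and 5 below (limma), beside the 19.6% of all genes given above. Of the genes named in the lists, those called then included Nup210 (log2 difference 0.61), Ehmt2 (0.57), Nup35 (0.50), Syne3 (0.47), Plec (0.47), Dync1h1 (0.44), Gfi1 (0.34), Zmpste24 (-0.26), Vps4b (-0.30) and Chmp2b (-0.40). Lrmp, Cdk6, Dhcr7, Ehmt1 and Cebpe were not. Here too, group cannot be told apart from the split of the libraries in ribosomal share and GC trend.

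**Figure D5:**
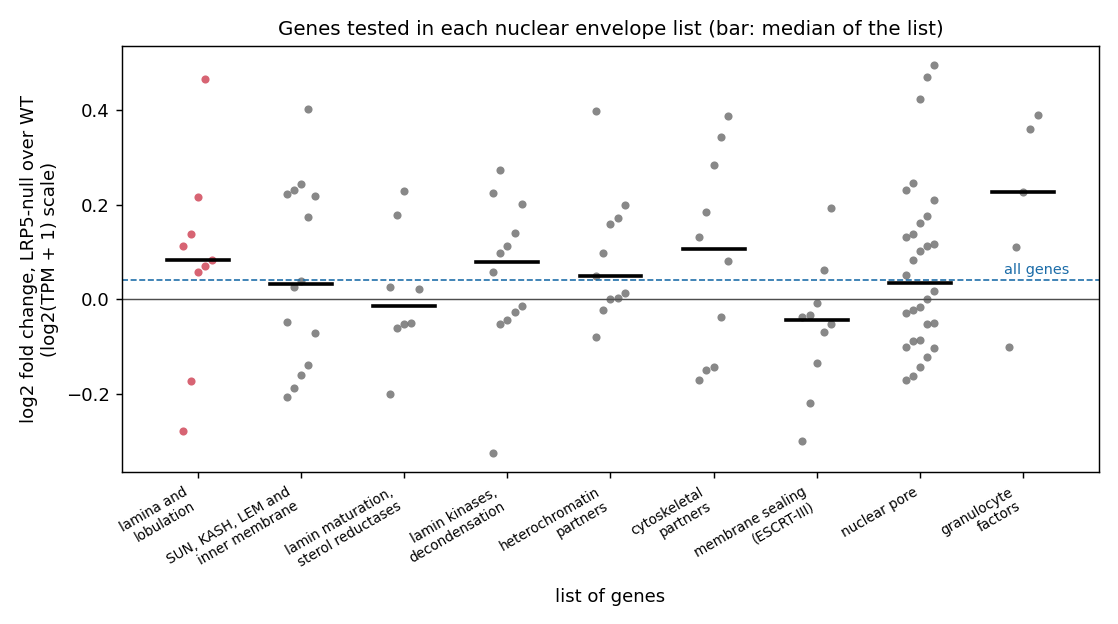
Each point is the log2 fold change of a gene tested, libraries labelled LRP5-null over WT, for the lamina and lobulation genes (red) and 8 other nuclear envelope lists (grey), with a bar at each list's median and a dashed line at the median of all genes tested (0.040). List medians run from -0.045 (ESCRT-III) to 0.23 (granulocyte factors), and none of the genes shown passed the adjusted threshold.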

How the data were processed

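RNA-seq of 6 bone marrow neutrophil libraries (3 WT, 3 LRP5-null) was taken as deposited. The authors aligned reads to the mouse genome (mm9 in the submitters' processing notes) and name the DESeq2 pipeline, and deposited TPM per gene, summing to a fixed total in each library; the tool that gave TPM is not given in the sources used here. The deposited identifiers come from a later annotation than mm9. A second deposited file holds, for each library, counts of sequenced reads, the percent of them in exons, introns and ribosomal RNA, and a ratio for coverage at either transcript end. The labels name a Percoll gradient and an mRNA kit, whereas the methods name a sort on CD11b and Ly6G and a stranded total RNA kit.

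The test was a moderated linear model of limma (version 3.58.1, R 4.3.3) fitted to log2(TPM + 1) of the 9775 genes averaging 1 TPM or more. Its prior variance followed a trend over mean level, and p-values were adjusted over all 9775 by Benjamini-Hochberg. Fold changes on that scale understate those of low genes. TPM keeps no depth, so no count model was used and errors come from the spread between libraries. The limma fit was tested on simulated data. Ratios within a library were compared by exact permutation tests in Python 3.11.15. All 10 genes are named, and of each other nuclear envelope list those called and the 2 with the smallest p, plus Lrp5 and Lyz2, except 1 gene that is not reported here. The genes and lists were chosen with earlier results of these data known. GC content and length came from the longest coding transcript in GENCODE M1 (NCBIM37) and covered 90.6% of the genes tested, and trends were splines with 4 degrees of freedom. Removing either trend alone was chosen after seeing the data. Promoter sequences are RefSeq windows of the GRCm38.p6 assembly placed by exact match on NCBIM37, whose coordinates are given, and windows on 1 chromosome were not used here.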

Additional observations from a re-analysis of the deposited data

How the results depend on the processing

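The 36 results described (counts of genes called, log2 differences of named genes and ratios) were recomputed under 573 combinations of result and alternative, of which 502 kept the direction and the side of the threshold (for counts, stayed within 1.5 times), 30 turned direction, 29 newly passed the threshold or gained calls and 12 lost them. Syne1, Lbr and Tmpo turned direction in none of the 18 alternatives run for each, but many of these could not turn it. Their groups did not overlap, so no choice of libraries could. Other filters, a fit without the variance trend and the replicate block leave the log2 difference of any gene as it is. Leaving out 1 library gave between 0 and 3 called genes of the set, between 0 and 18 of the other nuclear envelope genes and between 2 and 1920 of all genes, and the highest count in each came without WT replicate 3. Removing the GC trend alone called 1 gene of the set, 6 other nuclear envelope genes (3 above 0 and 3 below) and 391 of all genes (150 and 241). Removing GC and length trends called 7 other nuclear envelope genes (2 above 0 and 5 below) and 450 of all genes (168 and 282). All genes called fell from 52 to 3 with every gene above 0 TPM in at least 1 library kept in place of the filter, where the adjustment covers more genes, to 29 with a mean of at least 5 TPM, and to 6 with the ribosomal share as a covariate, with WT replicate 3 as the only WT library, and with GC and length trends removed together with the replicate block. With the replicate block alone, 4 of all genes and 0 of the set were called. The numbers share no stated origin, and the deviations of same-numbered libraries correlated at 0.23, -0.0075 and 0.13, so the pairing was not used. With GC and length trends removed, with or without the replicate block, the log2 difference was -0.010 for Lmnb2, -0.060 for Sun2, -0.11 for Syne2 and -0.035 for Emd. With the GC trend alone removed it was -0.014 for Lmnb1, -0.026 for Lmnb2, -0.071 for Sun2 and -0.040 for Emd, and with the length trend alone removed -0.036 for Syne2. With WT replicate 3 as the only WT library it was -0.018 for Lmnb2, -0.37 for Sun1, -0.21 for Sun2, -0.0083 for Syne2 and -0.00078 for Emd, and with the ribosomal share as a covariate -0.19 for Sun1 and -0.13 for Sun2. Leaving out 1 library put Sun1 between -0.0082 and 0.39, Sun2 between -0.058 and 0.21, the log2 ratio of Lmna to Lmnb1 between -0.65 and 0.77, that of Lbr to Lmna between -1.0 and 0.35 and that of Sun1 to Sun2 between -0.064 and 0.23 (LRP5-null minus WT). The causes of these moves were not tested. TPM holds no counts, so the precision of low values such as those of Lmna is unknown.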
